A study of Homo sapiens with 6 samples.

Results

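The genes described here build and serve the entry of proteins into the endoplasmic reticulum (ER) and their transport to and from the Golgi. They are 52 genes of ER translocation, N-glycosylation and COP-coated transport, chosen by symbol, and all 52 were found once in each table of 33095 genes. The cells were MM.1S, a human line derived from multiple myeloma, the malignancy of plasma cells, which are the B-lineage cells that secrete antibody. Lentiviral transduction gave the cells IRF3 shRNA 1, IRF3 shRNA 2 or a scrambled control hairpin, and each of these 3 arms has 2 libraries of poly(A)-selected RNA, from cells grown in RPMI medium with 10% serum. IRF3 is a transcription factor activated by nucleic acid sensing. The values are those of 2 comparisons that the authors deposited, shRNA 1 over scramble and shRNA 2 over scramble, and both rest on the same scramble libraries. Separate cultures are not named in the labels for the libraries of an arm. The p-values therefore reflect the spread among these libraries only, and that spread may be technical.

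Secreted and membrane proteins carry a signal sequence that the signal recognition particle binds as it leaves the ribosome. The particle docks at its receptor, the chain passes through the SEC61 channel, signal peptidase removes the signal sequence and oligosaccharyltransferase (OST) adds N-linked glycans. Folded cargo leaves the ER in vesicles coated by COPII, and COPI coats carry escaped residents and receptors back from the Golgi. Plasma cells hold an expanded ER because they export antibody in bulk, and the transcription factor XBP1 is known for raising many of these genes when B cells become plasma cells.

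Before the members, the labels were checked. IRF3 had reconstructed means of 974 normalised reads with shRNA 1, 2476 with shRNA 2 and 2809 with scramble. Its log2 fold change was -1.53 ± 0.10 (SE) with shRNA 1 (DESeq2 adjusted p = 8.45e-46) and -0.18 ± 0.10 with shRNA 2 (adjusted p = 0.181) in the authors' deposited tables. The targeted mRNA was thus not shown to be lower under the shRNA 2 label, and every value below for shRNA 2 is that of the libraries so labelled. All 8 plasma cell markers had means from 1665 to 25183 normalised reads, whereas the highest mean was 57.1 among T cell markers, 88.7 among myeloid markers and 33.2 among fibroblast or epithelial markers. Of the B cell markers, MS4A1 had a mean of 3.82 and PAX5 of 9.51, while CR2 had 1020. CR2 had 1378 normalised reads with shRNA 1, 825 with shRNA 2 and 858 with scramble. It was higher with shRNA 1 (DESeq2 adjusted p = 8.54e-05) and not called with shRNA 2 (0.852) in the authors' deposited tables. Summed over their lists, the plasma cell markers had 73992 normalised reads with shRNA 1, 59756 with shRNA 2 and 102015 with scramble. With each hairpin 6 of the 8 were lower and 1 was higher in the authors' deposited tables, SDC1 with shRNA 1 (29654 against 24500 normalised reads with scramble) and CD38 with shRNA 2 (2283 against 1229). The myeloid markers summed to 193, 116 and 45.9 and the T cell markers to 107, 79.8 and 53.4 in the same order of arms. Most of each sum was 1 gene, ITGAM (156, 88.4 and 21.7) and CD3E (84.4, 53.7 and 33.2), and without it the myeloid markers summed to 36.9, 27.3 and 24.3 and the T cell markers to 23.0, 26.1 and 20.2. The part of these shifts in the results below was not tested. A reconstructed mean is the level in 1 arm, solved from the deposited mean over all 6 libraries and both fold changes, and levels per arm below are all of this kind. Values of single libraries were not analysed here, and the depth of each library is unknown.

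The sequences shown first are elements in the promoters of members, because genes of this machinery are known targets of the ER stress response. RefSeq promoters on GRCh38.p14, reaching from 250 bases before to 50 bases after a start, were found for 48 of the 52 members, all but STT3B, SEC24D, RPN1 and SPCS1. The letters TGACGTGG, known as the unfolded protein response element, stood on either strand in promoters of 10 of these 48 members (20.8%). The share was 0.927% of all 27305 genes with a promoter and 1.18% of the 9410 genes with a mean of 50 or more normalised reads. The element is in capitals below, read 5′ to 3′ on the strand of the gene, so that CCACGTCA marks it on the opposite strand. The first 3 genes were lower with shRNA 2, and the other 3 encode coatomer subunits that were not called lower.
SRP19: agtcttcatgCCACGTCAgagactagag
SSR3: ctgataacagCCACGTCAgcaaggaaac
SEC24A: tgagagtcggTGACGTGGcggcgaggcc
COPA: agagggtcgcTGACGTGGaggcgtccga
COPB1: ccacccccttCCACGTCAgccaaggact
COPB2: cccggaagttCCACGTCAgtcagtctga

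These stretches lie at chr5:112861165-112861192 on the plus strand for SRP19, at chr3:156554149-156554176 on the minus strand for SSR3 and at chr5:134648596-134648623 on the plus strand for SEC24A. They lie at chr1:160343228-160343255 for COPA, chr11:14499842-14499869 for COPB1 and chr3:139389633-139389660 for COPB2, all on the minus strand. Of the 10 members holding the element, 3 were lower with shRNA 2. Of the 38 members without it, 20 were lower (52.6%). The median log2 fold change with shRNA 2 was -0.09 for members with the element and -0.27 for members without it, computed from the authors' deposited table. The shorter letters CCACGTC, whose matches include every TGACGTGG element read on the other strand, stood in promoters of 20 of 48 members (41.7%), against 3.82% of all genes with a promoter. With shRNA 2, 8 of these 20 were lower (40%), against 15 of the 28 without the letters (53.6%). The letters ACGTGTC stood in 7 members (14.6%), against 1.67%, and 5 of those 7 were lower with shRNA 2, against 18 of the 41 without the letters (43.9%). No difference in calls between members with and without a motif was tested. Both of these have the ACGT core of boxes that XBP1 can bind. The classic ER stress response element (CCAAT, 9 bases, CCACG) stood in 0 of 48 members and in 25 of all 27305 genes, and the interferon element (GAAA, 2 bases, GAAA) in 2 of 48 members, 4.17% against 4.38%. A match describes letters in a window and does not show binding.

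Promoters with ACGTGTC follow, each of a gene that was lower with shRNA 2, with those letters in capitals.
SEC61A1: gctagcactgACGTGTCtctcggcgga
SSR1: cgtgcgcggtACGTGTCccgcccctcg
COPE: cttccggctgACGTGTCtttcaggaag

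They are at chr3:128052428-128052454 on the plus strand, chr6:7313213-7313239 on the minus strand and chr19:18919373-18919399 on the minus strand (GRCh38.p14). The member with the largest fall, COPG1, is shown over the 250 bases before its start, at chr3:129249356-129249605 on the plus strand. The capitals mark its 1 match, CCACGTC read on the opposite strand.
COPG1: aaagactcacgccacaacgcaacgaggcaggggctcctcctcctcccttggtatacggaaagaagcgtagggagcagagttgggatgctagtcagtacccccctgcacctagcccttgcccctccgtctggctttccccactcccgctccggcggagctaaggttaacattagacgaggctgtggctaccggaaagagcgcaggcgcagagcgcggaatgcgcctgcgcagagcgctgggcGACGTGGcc

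The members were abundant transcripts, with means from 702 (SEC23A) to 31453 (JCHAIN) normalised reads and SEs of the log2 fold change from 0.0747 to 0.148. Per kilobase of annotated exon, JCHAIN (20098 normalised reads) and MZB1 (15206) stood above all other members, followed by SSR2 of the translocon-associated protein (TRAP) complex (4749) and the channel subunit SEC61B (3517). The lowest per kilobase were the COPII genes SEC23A (119) and SEC22B (155). The order of the antibody genes was the same in all 3 arms: JCHAIN had reconstructed means of 25862 with shRNA 1, 29644 with shRNA 2 and 38854 with scramble, and MZB1 had 12699, 11618 and 13319.

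**Figure D1:**
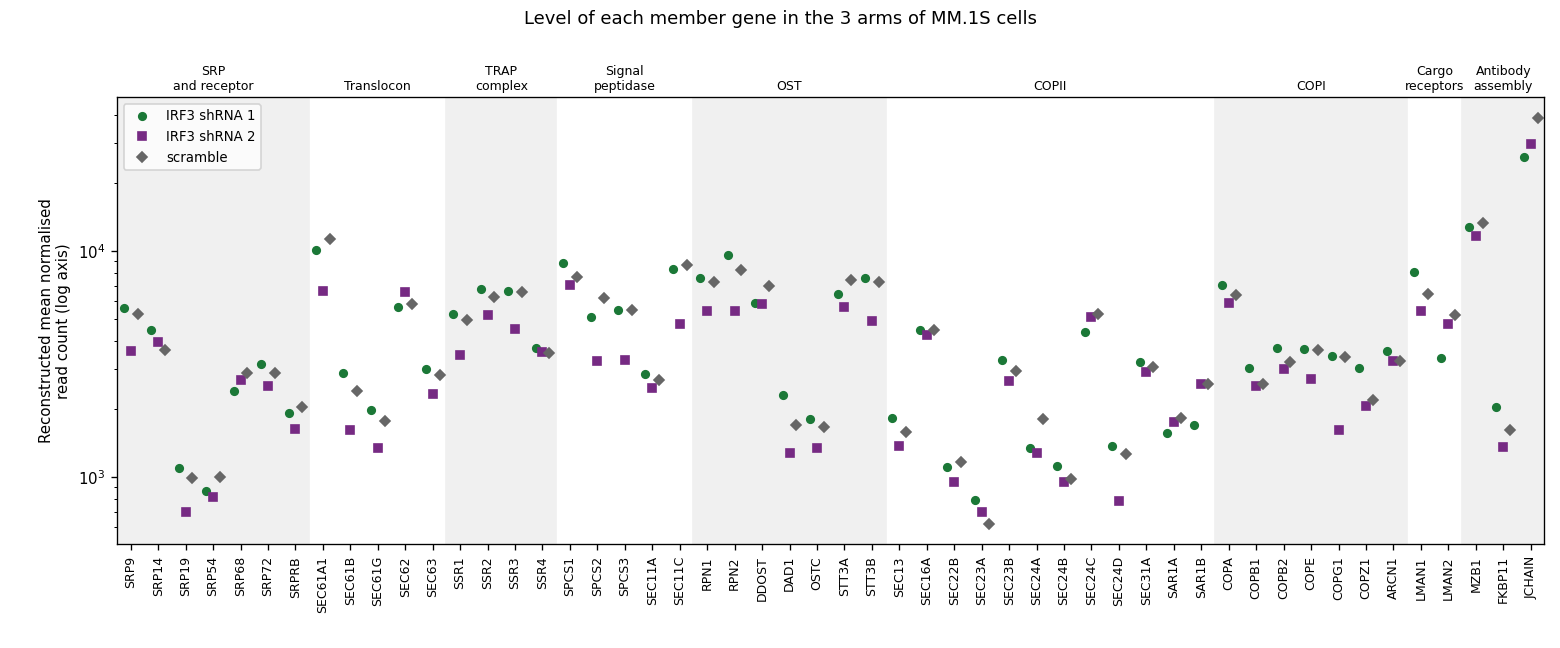
Reconstructed mean normalised read count (log axis) of each of the 52 member genes in the shRNA 1, shRNA 2 and scramble arms, grouped by role, 1 point per arm with no error. JCHAIN and MZB1 have the highest counts, and the shRNA 2 point is the lowest of the 3 for most genes of the translocon, TRAP complex, signal peptidase and OST.

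In the cells with shRNA 1, members were called in both directions, at shares near those of other genes. At an adjusted p below 0.05, 9 of 52 members were lower and 8 higher in the authors' deposited table, and 35 were not called. Of all 14488 genes tested, 14.8% were lower and 9.8% higher, so the members' shares of 17.3% and 15.4% are near that background. Among the 6470 genes at least as abundant as the lowest member, 22.7% were lower and 14.5% higher. The median log2 fold change of the members was 0.08 in the authors' deposited table, against -0.03 over all genes tested. Over genes at least as abundant as the lowest member it was -0.04. Recentred on the median gene, by subtracting its log2 fold change of -0.04, 6 members were lower and 11 higher. In bulk RNA, fewer cells expressing a gene and less RNA per cell cannot be told apart.

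In the libraries labelled shRNA 2, the changes ran one way. There 26 of 52 members were lower and 0 higher in the authors' deposited table by the DESeq2 test, and at an unadjusted p below 0.05 the counts were 31 lower and 1 higher. Of all 17054 genes tested, 18.1% were lower and 10.9% higher. Among genes at least as abundant as the lowest member, 28.8% were lower and 16.4% higher. The median of the members was -0.27 in the authors' deposited table, against -0.003 over all genes tested, and 47 of the 52 had a value below 0. Over genes at least as abundant as the lowest member the median was -0.06. Recentring here subtracted -0.04, the median over genes with a mean of 50 or more. So recentred, 25 members were lower and 1, SEC62, was higher.

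**Figure D2:**
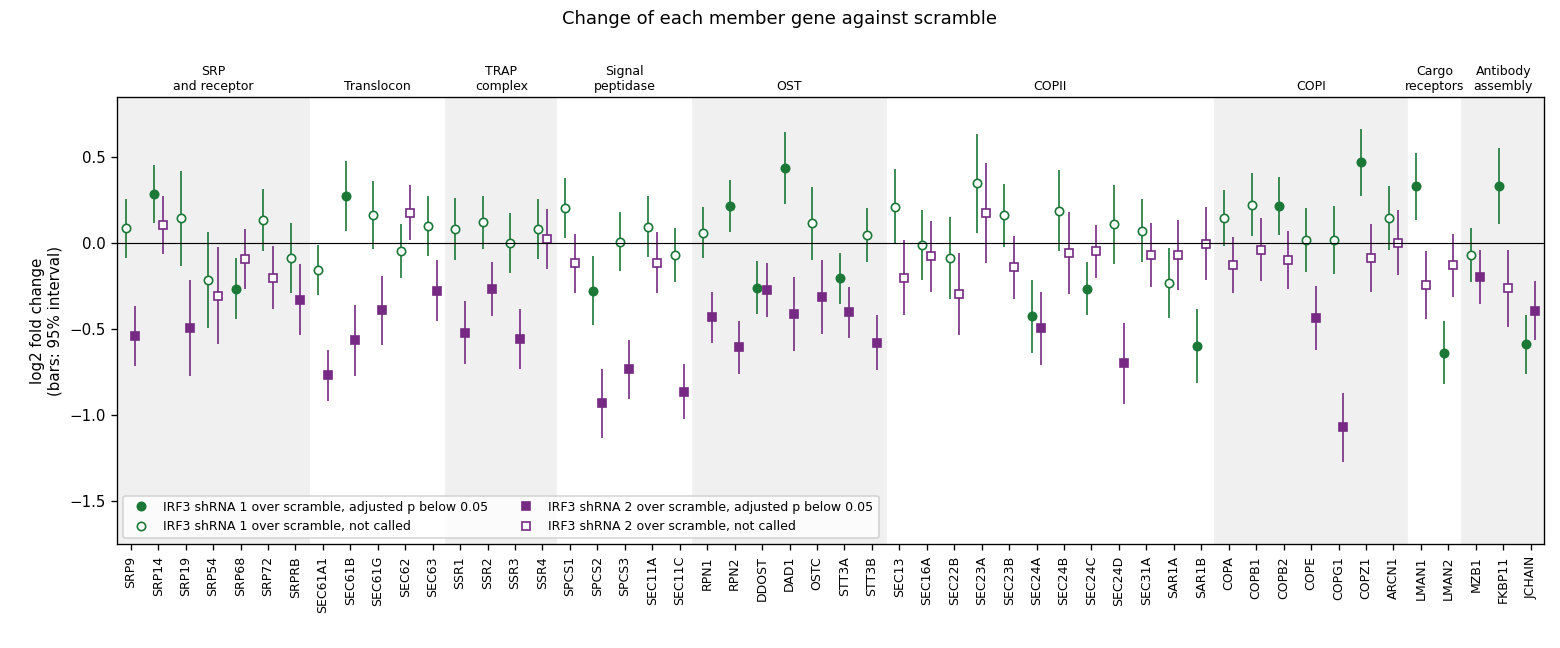
Log2 fold change of each member gene over scramble (y axis, bars are 95% intervals), shRNA 1 as circles and shRNA 2 as squares, filled where the adjusted p was below 0.05. All filled squares lie below 0, from -0.20 for MZB1 to -1.07 for COPG1, while filled circles lie on both sides.

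The share of members called lower with shRNA 2 varied with role. Among the 21 genes of the translocon, the TRAP complex, signal peptidase and OST, 17 were lower (81.0%), with a median log2 fold change of -0.41 in the authors' deposited table. Of the 19 COPII and COPI genes, 4 were lower (21.1%), with a median of -0.09. The difference between these groups was not tested. Pooling roles in this way was not part of the plan, which lists single roles. Outside both groups, 3 of 7 signal recognition particle and receptor genes (42.9%), 0 of 2 cargo receptors and 2 of 3 antibody assembly genes were lower. Of all genes tested 18.1% were lower, and of genes at least as abundant as the lowest member 28.8%. With shRNA 1, 3 of the 21 were lower and 3 higher, and 3 of the 19 coat genes were lower and 2 higher.

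**Figure D3:**
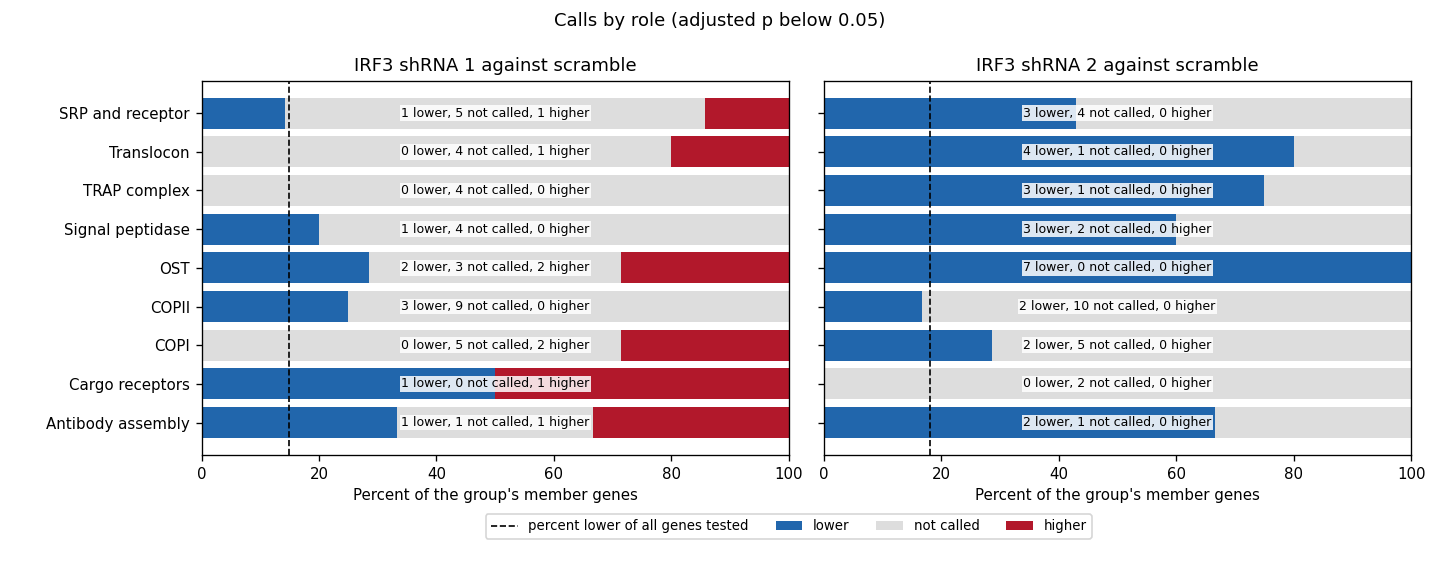
Percent of the members of each role that were lower, not called or higher (x axis) with shRNA 1 (left) and shRNA 2 (right), with counts written in the bars; the dashed line is the percent lower among all genes tested, 14.8 and 18.1. With shRNA 2 the OST bar is lower throughout (7 of 7), against 2 of 12 for COPII.

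Among the 6 measured proteins of the signal recognition particle and the receptor subunit SRPRB, 3 of 7 genes were lower with shRNA 2, and 1 was lower and 1 higher with shRNA 1. SRP9, which with SRP14 holds back translation while the ribosome docks, had reconstructed means of 5579 with shRNA 1, 3616 with shRNA 2 and 5249 with scramble. The shRNA 2 arm alone was low, at a log2 fold change of -0.54 ± 0.09 (SE, DESeq2 adjusted p = 1.56e-08) in the authors' deposited table. Its partner SRP14 was at 0.29 ± 0.09 with shRNA 1 (DESeq2 adjusted p = 0.00522) and 0.11 ± 0.09 with shRNA 2 (0.39) in the authors' deposited tables. SRP68, which pairs with SRP72 in the particle, was at -0.26 ± 0.09 with shRNA 1 (DESeq2 adjusted p = 0.0179) and -0.09 ± 0.09 with shRNA 2 (0.512) in the authors' deposited tables. The first call was lost on recentring (adjusted p = 0.0548). SRP19, an assembly factor of the particle, and SRPRB, the membrane anchor of the receptor, fell to ratios of 0.711 and 0.797 with shRNA 2. SRP54, the subunit that binds the signal sequence, and SRP72 were called in neither comparison.

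Of the 5 translocon genes, 4 were lower with shRNA 2, and 1 was higher with shRNA 1. SEC61A1, the pore-forming subunit (chr3:128051641-128071683 on GRCh38), had reconstructed means of 10125 with shRNA 1, 6617 with shRNA 2 and 11259 with scramble. Its log2 fold change was -0.77 ± 0.08 (SE, DESeq2 adjusted p = 1.3e-22) with shRNA 2 and -0.15 ± 0.07 (0.126) with shRNA 1 in the authors' deposited tables. The shRNA 2 level was 0.588 times that of scramble, with a 95% interval of 0.531 to 0.651. SEC61B, a small subunit of the channel, had 2891 normalised reads with shRNA 1, 1614 with shRNA 2 and 2386 with scramble, so that the hairpins lay on opposite sides of the control. Its log2 fold changes of 0.28 ± 0.10 (DESeq2 adjusted p = 0.0356) with shRNA 1 and -0.56 ± 0.11 (1.06e-06) with shRNA 2 both passed in the authors' deposited tables, though the rise was not called without the filter on low genes, that is with adjustment over every gene (0.0805). SEC61G, the other small subunit, and SEC63, which recruits the lumenal chaperone BiP, were lower with shRNA 2 at ratios of 0.763 and 0.827. SEC62, the partner of SEC63 in moving finished chains, was the exception, at 0.18 ± 0.08 with shRNA 2 (DESeq2 adjusted p = 0.0842) in the authors' deposited table.

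The TRAP complex, which sits beside the channel and aids some signal sequences, was called in 0 of 4 genes with shRNA 1 by the DESeq2 test, also at an unadjusted p below 0.05. With shRNA 2, 3 of 4 were lower. SSR3 had 6606 normalised reads with shRNA 1, 4487 with shRNA 2 and 6589 with scramble, and its log2 fold change with shRNA 2 was -0.55 ± 0.09 (SE, DESeq2 adjusted p = 9.19e-09) in the authors' deposited table. SSR1 (-0.52 ± 0.09) and SSR2 (-0.27 ± 0.08) were also lower there. SSR4 was called in neither comparison, with 3727, 3581 and 3519 normalised reads for shRNA 1, shRNA 2 and scramble.

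Signal peptidase held the deepest falls of the entry machinery. SPCS2, an accessory subunit, had 5113 normalised reads with shRNA 1, 3247 with shRNA 2 and 6186 with scramble, so both hairpin arms were below the control. Its log2 fold change was -0.93 ± 0.10 (DESeq2 adjusted p = 7.3e-18) with shRNA 2 and -0.27 ± 0.10 (0.0324) with shRNA 1 in the authors' deposited tables, the second call being lost on recentring (0.0806) and without the filter on low genes (0.0732). SPCS3 was at -0.73 ± 0.09 with shRNA 2 and 0.01 ± 0.09 with shRNA 1 in the authors' deposited tables. The catalytic subunits SEC11A and SEC11C are alternative paralogs. SEC11C, at 2671 normalised reads per kilobase of exon against 1451 for SEC11A, was at -0.86 ± 0.08 with shRNA 2 (DESeq2 adjusted p = 9.58e-25) in the authors' deposited table. That is 0.550 times scramble (95% interval 0.493 to 0.614). SEC11A was at -0.11 ± 0.09 (adjusted p = 0.401) in the same authors' deposited table, with an interval of its ratio of 0.817 to 1.05. Neither paralog was called with shRNA 1.

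OST was the 1 complex in which all measured members, 7 of 7, were lower with shRNA 2, at log2 fold changes from -0.27 to -0.60 in the authors' deposited table. With shRNA 1 the same complex split, with 2 lower, 2 higher and 3 not called. RPN2 had 9574 normalised reads with shRNA 1, 5406 with shRNA 2 and 8222 with scramble. It was at 0.22 ± 0.08 (SE, DESeq2 adjusted p = 0.0219) with shRNA 1 and -0.60 ± 0.08 (2.17e-13) with shRNA 2 in the authors' deposited tables. DAD1, a small subunit needed for the complex to hold together, likewise stood on opposite sides of scramble, with 2307, 1279 and 1701 normalised reads for shRNA 1, shRNA 2 and scramble. Its log2 fold changes were 0.44 ± 0.11 (DESeq2 adjusted p = 0.000387) and -0.41 ± 0.11 (0.000958) in the authors' deposited tables. DDOST was lower by nearly the same amount with each hairpin, at -0.26 ± 0.08 with shRNA 1 (DESeq2 adjusted p = 0.00693) and -0.27 ± 0.08 with shRNA 2 (0.00316) in the authors' deposited tables. The catalytic subunit STT3A, which glycosylates chains during translocation, was at -0.20 ± 0.08 with shRNA 1 (DESeq2 adjusted p = 0.0314, 0.105 on recentring) and -0.40 ± 0.08 with shRNA 2 (1.12e-06) in the authors' deposited tables. Its paralog STT3B, which acts on sites that were skipped, was at 0.05 ± 0.08 with shRNA 1 (adjusted p = 0.728) and -0.58 ± 0.08 with shRNA 2 (1.95e-11) in the authors' deposited tables. RPN1, a subunit near the translocon, and OSTC, which links STT3A complexes to the channel, were lower with shRNA 2 at ratios of 0.742 and 0.806 and were not called with shRNA 1.

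Among the 12 COPII genes, most were not called. With shRNA 2, SEC24A and SEC24D were lower and 10 were not called, and with shRNA 1, SEC24A, SEC24C and SAR1B were lower and 9 were not called. The 4 SEC24 paralogs, which select cargo for the coat, did not share a pattern of calls. SEC24A was at -0.42 ± 0.11 (DESeq2 adjusted p = 0.000774) with shRNA 1 and -0.49 ± 0.11 (4.47e-05) with shRNA 2 in the authors' deposited tables. SEC24B was called in neither, at 0.19 ± 0.12 (DESeq2 adjusted p = 0.277) and -0.06 ± 0.12 (0.808) in the authors' deposited tables. SEC24C was at -0.26 ± 0.08 (DESeq2 adjusted p = 0.00563) with shRNA 1 and -0.04 ± 0.08 (0.758) with shRNA 2 in the authors' deposited tables. SEC24D was at 0.11 ± 0.12 (DESeq2 adjusted p = 0.566) with shRNA 1 and -0.70 ± 0.12 (7.87e-08) with shRNA 2 in the authors' deposited tables. Per kilobase of exon, SEC24C (1082 normalised reads) was the most abundant of them, against 274 for SEC24D, 211 for SEC24A and 194 for SEC24B.

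The GTPase that starts COPII assembly has 2 forms with similar levels, SAR1A (269 normalised reads per kilobase of exon) and SAR1B (278). SAR1B had 1698 normalised reads with shRNA 1, 2562 with shRNA 2 and 2567 with scramble, so that the shRNA 1 arm alone was low. Its log2 fold change was -0.60 ± 0.11 (DESeq2 adjusted p = 9e-07) with shRNA 1 and -0.003 ± 0.11 (0.993) with shRNA 2 in the authors' deposited tables. SAR1A was at -0.23 ± 0.10 (DESeq2 adjusted p = 0.095) and -0.07 ± 0.10 (0.724) in the authors' deposited tables. SAR1B and SEC24A lie head to head on chromosome 5 with 483 bases in common, and whether counting used strand was not stated in the sources used here, so reads of that stretch are uncertain. The inner coat paralogs SEC23A and SEC23B were called in neither comparison, at 0.35 ± 0.15 (DESeq2 adjusted p = 0.0665) and 0.16 ± 0.09 (0.21) with shRNA 1 in the authors' deposited tables. With shRNA 2 they were at 0.18 ± 0.15 (DESeq2 adjusted p = 0.421) and -0.14 ± 0.09 (0.291) in the authors' deposited table. The outer coat genes SEC13 and SEC31A, the exit site scaffold SEC16A and the fusion protein SEC22B were not called either, with ratios from 0.816 to 1.16.

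COPI is a coat of 7 subunits that are recruited to membranes as 1 complex. With shRNA 2, 2 of the 7 genes were lower, and with shRNA 1, 2 were higher. COPG1, the gamma subunit (chr3:129249606-129277773 on GRCh38), had 3421 normalised reads with shRNA 1, 1606 with shRNA 2 and 3373 with scramble. Its log2 fold change of -1.07 ± 0.10 (SE, DESeq2 adjusted p = 1.82e-23) with shRNA 2 in the authors' deposited table was the largest fall of all members, to 0.476 times scramble (95% interval 0.414 to 0.548). With shRNA 1 it was at 0.02 ± 0.10 (adjusted p = 0.925) in the authors' deposited table, and 0% of its 31-base words were shared with another gene. COPE, the epsilon subunit, was the 1 other coatomer gene lower with shRNA 2, at -0.43 ± 0.09 (DESeq2 adjusted p = 4.38e-05) in the authors' deposited table. COPA, COPB1, COPB2, COPZ1 and ARCN1 lay between -0.13 and 0.00 there and were not called. With shRNA 1 the zeta subunit COPZ1 rose to 3016 normalised reads, against 2177 with scramble, at 0.47 ± 0.10 (DESeq2 adjusted p = 3.16e-05) in the authors' deposited table. COPB2 rose with shRNA 1 as well, at 0.22 ± 0.09 (DESeq2 adjusted p = 0.0458) in the authors' deposited table, a call lost without the filter on low genes (0.103).

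The 2 lectin cargo receptors went opposite ways with shRNA 1. LMAN2, which cycles between ER and Golgi and binds high-mannose glycans, had 3342 normalised reads with shRNA 1, 4757 with shRNA 2 and 5195 with scramble. It was at -0.64 ± 0.09 (SE, DESeq2 adjusted p = 4.13e-10) with shRNA 1, the largest fall of a member in that comparison, and at -0.13 ± 0.09 (0.347) with shRNA 2 in the authors' deposited tables. LMAN1, the receptor that exports glycoproteins from the ER, had 8084, 5435 and 6424 normalised reads for shRNA 1, shRNA 2 and scramble. It was at 0.33 ± 0.10 (DESeq2 adjusted p = 0.00579) with shRNA 1 and -0.24 ± 0.10 (0.0544) with shRNA 2 in the authors' deposited tables.

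Of the antibody assembly genes, JCHAIN, which joins units of polymeric IgA and IgM, was lower with both hairpins. It was at -0.59 ± 0.09 (SE, DESeq2 adjusted p = 5.9e-10) with shRNA 1 and -0.39 ± 0.09 (6.28e-05) with shRNA 2 in the authors' deposited tables, ratios of 0.666 and 0.763. MZB1, an ER protein that helps antibody heavy and light chains assemble, was at -0.07 ± 0.08 (DESeq2 adjusted p = 0.615) and -0.20 ± 0.08 (0.0486) in the authors' deposited tables, the call with shRNA 2 being lost on recentring (0.138) and without the filter on low genes (0.0934). FKBP11, a prolyl isomerase of secretory cells, was at 0.34 ± 0.11 (DESeq2 adjusted p = 0.0157) with shRNA 1 and -0.26 ± 0.11 (0.0691) with shRNA 2 in the authors' deposited tables.

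Calls in both comparisons were made for 8 members. SPCS2, DDOST, STT3A, SEC24A and JCHAIN were lower in each, and SEC61B, RPN2 and DAD1 were higher with shRNA 1 and lower with shRNA 2. A further 18 were lower with shRNA 2 and not called with shRNA 1, and 17 were called in neither. Because a call in 1 comparison does not show a difference, the difference of the 2 log2 fold changes was tested for each gene by a two-sided z test, with Benjamini-Hochberg adjustment over the 12977 genes with a mean of 50 or more. It passed for 29 of 52 members (55.8%), against 27% of all genes tested. Of these, 27 were lower with shRNA 2 than with shRNA 1 (background 15.5%) and 2, SAR1B and LMAN2, were higher (background 11.5%). Among genes at least as abundant as the lowest member, 20.9% were lower and 16.3% higher.

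COPG1 differed by -1.09 ± 0.14 (SE, adjusted p of the z test 2.1e-12), RPN2 by -0.82 ± 0.11 (2.85e-12), SEC11C by -0.80 ± 0.11 (1.01e-10) and SPCS3 by -0.74 ± 0.12 (5.44e-08). These 4 had the lowest adjusted p among members, and each had the lower level in the shRNA 2 arm. In the groups, 16 of the 21 genes of translocon, TRAP complex, signal peptidase and OST were lower with shRNA 2 than with shRNA 1, and 6 of the 19 coat genes were. Among the paralogs, SEC24D (-0.81 ± 0.17), SEC11C, STT3B (-0.63 ± 0.11) and SAR1B (0.59 ± 0.15) differed between the hairpins. For DDOST the difference was -0.01 with a 95% interval of -0.23 to 0.20, and for SEC24A it was -0.07 with an interval of -0.37 to 0.23. JCHAIN differed by 0.20 with an interval of -0.04 to 0.44 and did not pass (0.249). The shared scramble libraries make these SEs too large and the intervals too wide. Reconstructed without the shared controls, the SE was 0.087 in place of 0.123 for JCHAIN. It was 0.079 in place of 0.112 for DDOST and 0.109 in place of 0.153 for SEC24A. A difference that did not pass is therefore not shown to be absent.

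**Figure D4:**
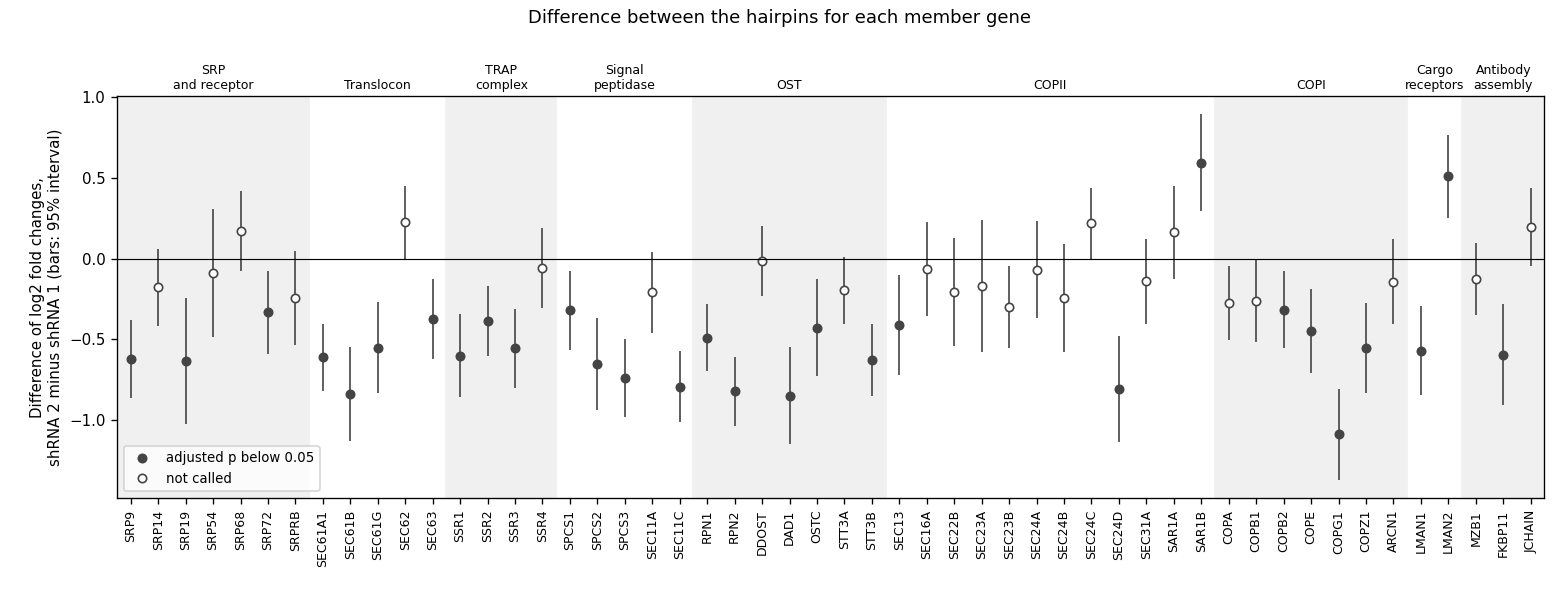
Difference of the log2 fold changes, shRNA 2 minus shRNA 1 (y axis, bars are 95% intervals), for each member gene by role, filled where the adjusted p of the z test was below 0.05. The filled points lie below 0 except SAR1B and LMAN2, and COPG1 is the lowest at -1.09. The bars are too wide, because both comparisons share the scramble libraries.

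Other genes of the same pathway were taken from lists. For each list below, the share over all genes tested was 14.8% lower and 9.8% higher with shRNA 1. With shRNA 2 it was 18.1% lower and 10.9% higher. Of 5 tested further genes of OST, counting the associated lectin MLEC, 4 were lower with shRNA 2, MLEC among them. Of 14 further translocation genes 8 were lower and 0 higher by the DESeq2 test (9 and 1 at an unadjusted p below 0.05). With shRNA 1, 1 of these 5 genes, MLEC, was lower and 0 were higher by the DESeq2 test, also at an unadjusted p below 0.05. Of the translocation genes, 4 were lower and 3 higher with shRNA 1. TRAM2, a translocon-associated membrane protein, was at -0.54 ± 0.08 with shRNA 1 and -0.84 ± 0.08 with shRNA 2 in the authors' deposited tables. NCLN, of the membrane protein translocon, was at 0.23 ± 0.09 and -0.49 ± 0.09 in the authors' deposited tables, with both calls passing, though the rise with shRNA 1 was not called without the filter on low genes (adjusted p = 0.0812). CCDC47, a further part of that translocon, fell with both hairpins, at -0.74 ± 0.09 and -0.32 ± 0.09 in the authors' deposited tables. MLEC, a lectin that associates with OST, fell with both as well, at -0.31 ± 0.12 and -0.46 ± 0.12, but its call with shRNA 1 was lost on recentring (adjusted p = 0.0833) and without the filter on low genes (0.0868). The ER membrane complex and tail-anchor insertion genes, a separate entry route, were lower in 6 and higher in 1 of 17 cases with shRNA 1. With shRNA 2 they were lower in 2 and higher in 1. In percent lower and higher these are 35.3 and 5.88 with shRNA 1 and 11.8 and 5.88 with shRNA 2. EMC3, a core subunit of that complex, was at -0.54 ± 0.13 with shRNA 1 (DESeq2 adjusted p = 0.000622) and -0.23 ± 0.13 with shRNA 2 (0.219) in the authors' deposited tables.

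Genes that build the lipid-linked glycan precursor were lower in 4 and higher in 3 of 29 cases with shRNA 1, and lower in 11 and higher in 3 with shRNA 2. The shares with shRNA 1, 13.8% and 10.3%, are near those of all genes tested. With shRNA 2 the shares were 37.9% and 10.3%. At an adjusted p below 0.01, 0 were called with shRNA 1 by the DESeq2 test, and 7 were lower and 1 higher with shRNA 2; at an unadjusted p below 0.05, 6 were lower and 6 higher with shRNA 1. GNPNAT1, of the hexosamine pathway, was at -0.57 ± 0.22 with shRNA 1 and -1.20 ± 0.23 with shRNA 2 in the authors' deposited tables, the call with shRNA 1 being lost on recentring (adjusted p = 0.0682) and without the filter on low genes (0.102). Dehydrodolichyl diphosphate synthase is formed by DHDDS and NUS1, and these moved apart with shRNA 2: NUS1 was at -0.56 ± 0.11 and DHDDS at 0.38 ± 0.12 in the authors' deposited table. With shRNA 1 both were lower, at -0.31 ± 0.11 and -0.36 ± 0.13. Of 11 genes of glycan trimming and the lectin folding cycle, 4 were lower and 1 higher with shRNA 1 (36.4% and 9.09%). With shRNA 2, 7 were lower and 1 higher (63.6% and 9.09%). MAN1B1, a mannosidase of glycoprotein quality control, was at -0.49 ± 0.10 with shRNA 1 and 0.32 ± 0.09 with shRNA 2 in the authors' deposited tables. MAN1A1, a mannosidase that trims glycans in the early secretory pathway, fell with both, at -0.54 ± 0.08 and -0.40 ± 0.08. Of 18 Golgi glycosyltransferase and mannosidase genes, shRNA 1 had 5 lower and 3 higher (27.8% and 16.7%), and shRNA 2 had 5 lower and 2 higher (27.8% and 11.1%). Golgi mannosidase II, MAN2A1, lay on opposite sides of scramble, at -0.46 ± 0.07 with shRNA 1 and 0.32 ± 0.07 with shRNA 2 in the authors' deposited tables, while its paralog MAN2A2 was lower with both, at -0.51 ± 0.10 and -0.38 ± 0.10. The sialyltransferase ST6GAL1 was lower with both too, at -0.30 ± 0.07 and -0.48 ± 0.07.

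Of 23 further COPII and exit genes, shRNA 1 had 5 lower and 2 higher, and shRNA 2 had 2 lower and 3 higher. LMAN2L, a relative of LMAN2, rose with both hairpins, at 0.68 ± 0.12 and 0.57 ± 0.12 in the authors' deposited tables. ERGIC1, with a mean of 12337 normalised reads against 987 for LMAN2L, was lower with both, at -0.22 ± 0.07 and -0.32 ± 0.07. MIA2 was called in neither comparison. Further COPI and retrieval genes were lower in 1 and higher in 4 of 18 tested cases with shRNA 1. With shRNA 2 they were lower in 8 of 20, and higher in 0 by the DESeq2 test (1 at an unadjusted p below 0.05). In percent lower and higher these are 5.56 and 22.2 with shRNA 1 and 40 and 0 with shRNA 2. ARF1, the GTPase that recruits coatomer, was at -0.75 ± 0.08 and -0.40 ± 0.08 in the authors' deposited tables. KDELR2, a receptor that returns ER residents, was at 0.42 ± 0.10 and -0.27 ± 0.10 in the authors' deposited tables, the call with shRNA 2 being lost on recentring (adjusted p = 0.0675). Of 8 tested genes of the CREB3 family and other regulators of secretory capacity, 2 were lower and 0 higher with shRNA 1 by the DESeq2 test (3 lower and 0 higher at an unadjusted p below 0.05), and 4 were lower and 1 higher with shRNA 2. XBP1, from that list, was lower in both, with 11803 normalised reads with shRNA 1, 9461 with shRNA 2 and 21049 with scramble. Its log2 fold changes were -0.83 ± 0.09 (DESeq2 adjusted p = 9.09e-18) and -1.15 ± 0.09 (5.79e-34) in the authors' deposited tables, and their difference of -0.32 ± 0.13 did not pass the z test (0.0515). The shared scramble libraries make that SE too large, so XBP1 is not shown to be equal in the 2 hairpin arms. Over all wider lists, 32 genes were lower and 17 higher of 143 tested with shRNA 1, and 51 were lower and 11 higher of 145 tested with shRNA 2. These are 22.4% and 11.9% with shRNA 1, against 14.8% and 9.8% of all genes tested. Among genes at least as abundant as the lowest member the shares were 22.7% and 14.5%. With shRNA 2 the lists had 35.2% and 7.59%, against 18.1% and 10.9% of all genes tested and 28.8% and 16.4% of the abundant genes. The abundant genes are an unlike background in part, because the lists also hold genes with means down to 1.51 normalised reads. Recentred on the median gene, the counts were 27 lower and 22 higher with shRNA 1 and 45 lower and 15 higher with shRNA 2.

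Several measures bear on how far single members can be read. Over a median member, 5.16% of the 31-base words of its GENCODE 29 transcripts also occurred in transcripts of another gene, and 12 members shared 10% or more. The largest shares were in SPCS1 (58.0%, mostly with NEK4), SEC24C (39.8%, all with the unnamed gene AC022400.8) and SRP19 (27.6%), and SPCS2 (18.5%) and SRP9 (13.3%) share words with the pseudogenes SPCS2P4 and SRP9P1. Without those 12 members, 19 of the remaining 40 were lower with shRNA 2, and 5 were lower and 8 higher with shRNA 1. Members higher with shRNA 1 had a median of 2414 exon bases, members lower 3177 and members not called 4011. With shRNA 2, members lower had a median of 2708.5 exon bases and members not called 4215. Across the 52 members the Spearman correlation of exon length with the log2 fold change was -0.17 with shRNA 1 and 0.21 with shRNA 2, against -0.12 and -0.05 across the 12977 genes with a mean of 50 or more. All points share the same libraries, and the part of transcript length in these results was not tested.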

How the data were processed

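Groups were taken from the shRNA named in each sample's labels. The submitters' processing notes list Salmon 0.12.0, DESeq2 1.24.0 and the build GRCh38 (hg38) and give no settings for them. The authors deposited, per the file headers, a signal (mean normalised read count over all libraries), log2 fold changes with SEs on the log2 scale, a Wald score, and p-values with adjusted p-values. The mean was identical in both tables. The main test was the authors' DESeq2 result at an adjusted p below 0.05. Signs are shRNA over scramble: dispersions solved from both tables for 957 genes differed by 0.00834 (median absolute log ratio) with these signs, and by 0.107 to 0.194 with any sign turned.

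Reconstructed means, the z test and promoter searches were computed with Python 3.11.15, scipy 1.17.1 and statsmodels 0.14.6. The z test and reconstruction were also run on simulated data. The simulated SEs were built from known dispersions, so that run checks the arithmetic and not how well few libraries estimate a spread. The shared scramble libraries make the SE of the difference too large. Exon lengths and coordinates are those of GENCODE 29, in which all 33095 identifiers occur. No protein table was used here, so paralogs were compared without sequences. The members and lists were chosen with earlier results of these data known. Each role's largest fall and rise, paralog pairs, the 4 members with the smallest adjusted p in the z test, and up to 3 genes of each wider list were named by rule. Alternatives covered the threshold, a fold minimum, the filter on low genes, recentring, the SE of the difference and shared sequence. A value of 1 marker gene is not reported here.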

Additional observations from a re-analysis of the deposited data

Results flagged for a closer look

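The effect of the hairpins differed for 29 members by the z test of shRNA 2 minus shRNA 1, and the differences of log2 fold changes are given here by role. In the signal recognition particle they were -0.63 for SRP9, -0.64 for SRP19 and -0.33 for SRP72. In the translocon they were -0.61 for SEC61A1, -0.84 for SEC61B, -0.55 for SEC61G and -0.37 for SEC63. In the TRAP complex they were -0.60 for SSR1, -0.39 for SSR2 and -0.56 for SSR3. In signal peptidase they were -0.32 for SPCS1, -0.66 for SPCS2, -0.74 for SPCS3 and -0.80 for SEC11C. In OST they were -0.49 for RPN1, -0.82 for RPN2, -0.85 for DAD1, -0.43 for OSTC and -0.63 for STT3B. In the coats they were -0.41 for SEC13, -0.81 for SEC24D and 0.59 for SAR1B in COPII, and -0.32 for COPB2, -0.45 for COPE, -1.09 for COPG1 and -0.56 for COPZ1 in COPI. The cargo receptors LMAN1 and LMAN2 had differences of -0.57 and 0.51, and FKBP11 had -0.60. IRF3 itself differed by 1.35 ± 0.15 (SE), being lower with shRNA 1, so these members differ between arms in which the targeted mRNA differs as well.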

How the results depend on the processing

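With an absolute log2 fold change of at least 0.5, 3 members were lower and 0 higher with shRNA 1, and 12 were lower with shRNA 2. At an adjusted p below 0.01, 4 were higher with shRNA 1. At an adjusted p below 0.10, and also on recentring, 1 was higher with shRNA 2. Without members that share at least 10% of words, an alternative added after the data were seen, 5 were lower with shRNA 1, and 1 was higher with shRNA 2 than with shRNA 1. With the SE of the difference reconstructed without the shared controls, 33 members were lower and 4 higher with shRNA 2 than with shRNA 1. The background rose as well: 5676 of the 12977 genes with a mean of 50 or more differed with that SE, against 3499 in the main test. Adjusted over every gene, 22 were lower. The count of members lower with shRNA 2 stayed between 19 and 31 under the other alternatives. Over all wider lists, the genes lower and higher with shRNA 1 were 23 and 7 at an adjusted p below 0.01 and 27 and 12 without the filter on low genes, and with shRNA 2 they were 37 and 7, and 46 and 8. On recentring, the uncalled values of SEC16A with shRNA 1 (0.031) and of SAR1B (0.037) and COPB1 (0.0040) with shRNA 2 changed sign. No paired analysis was possible because the tables hold no value of a single library, and for the same reason no replicate was left out in turn. Depth per library is unknown; the median SE of 0.0931 in both comparisons limits what could be detected.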
